A study of Drosophila melanogaster with 12 samples.

Results

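The genes described here serve juvenile hormone (JH): the receptors Met and gce, the synthesis enzyme jhamt, the degrading enzymes Jhe, Jheh1, Jheh2 and Jheh3, and Jhbp2, which is named as a JH-binding protein. They were taken by gene symbol from the annotation of the Affymetrix Drosophila Genome Array, where 6 of 13966 probe sets carried 1 of these 8 symbols. The 6 probe sets stood for 5 genes, of 10844 that the array named: Met (143258_at), gce (145113_at and 145114_at), jhamt (144256_at), Jheh2 (147472_at) and Jhbp2 (149304_at). Jhe, Jheh1 and Jheh3 were each the symbol of no probe set. For 1 probe set the platform annotation gives CG30095, the neighbour of Jhe, where the study's table gives CG8425, which is Jhe. That probe set was not used, so nothing is said of Jhe here. RefSeq lists probe set 142196_at, to which the platform annotation gives no gene, among the synonyms of Jheh1; it was added after its values had been seen and enters no count of members.

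JH is a sesquiterpenoid made in the corpus allatum, a part of the larval ring gland, and it is known for keeping insect tissues in their larval programme while pulses of the steroid 20-hydroxyecdysone (20E) drive molting and metamorphosis. Met and gce, a pair of related bHLH-PAS transcription factors, bind JH and with the coactivator tai raise transcription of the zinc finger gene Kr-h1. Circulating JH is carried by binding proteins and broken down by esterases and epoxide hydrolases.

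RNA came from cultured organs of wandering larvae of the last instar with partly cleared, blue-stained guts, taken about 8 h before pupariation. The methods name w1118 as the strain used for the arrays. The organs of 8 larvae, dissected into 1 well and so pooled, were kept for 1 h in Schneider's medium and then for 6 h in fresh medium at 25 °C. The 4 groups, of 3 separately harvested cultures each, received 5 µM 20E plus 85 µM cycloheximide (an inhibitor of protein synthesis), 5 µM 20E, 85 µM cycloheximide, or no hormone; no JH is named among the additions. Comparing 20E with its control, in the presence and absence of cycloheximide, asks which transcripts respond to the hormone and which respond without new protein. The titles call the samples organ cultures and the source field calls them whole animal; the sex of the larvae is not stated. In such mixed organs, fewer cells of a type and less RNA per cell cannot be told apart.

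Expression is given as the intensity that the authors' dChip model gave each probe set, a linear scale that is comparable for 1 probe set across arrays but not between probe sets. Array medians lay between 114 and 118.5 and maxima between 13836 and 16324, and arrays of 1 group correlated with Pearson r from 0.983 to 0.993 across probe sets. Fold changes are log2 differences from 1 limma fit over all 12 arrays, with adjusted p-values by Benjamini-Hochberg over all 13966 probe sets. A call needed both an adjusted p below 0.10 and a change of 1.3-fold or more (0.38 on the log2 scale), limits taken from the study's methods. Eip78C, an early 20E-response gene, had intensities of 128, 187 and 134 with 20E plus cycloheximide, 132, 224 and 127 with 20E, 44.5, 49.0 and 47.5 with cycloheximide, and 42.4, 50.3 and 43.3 without hormone. Both 20E groups lay above both of their controls, with a log2 change of 1.65 (SE 0.20, adjusted p = 0.00164) with cycloheximide present and 1.78 (SE 0.20, adjusted p = 0.00169) with 20E alone. Hr3, the other measured gene of this check and a nuclear receptor that 20E induces, was not called by its brighter probe set, with log2 differences of 0.12 (SE 0.08, adjusted p = 0.678) with cycloheximide present and -0.04 (SE 0.08, adjusted p = 0.864) with 20E alone. Its dimmer probe set 143123_at disagreed and was higher in both comparisons, by 1.10 (SE 0.16, adjusted p = 0.00641) with cycloheximide present and 0.63 (SE 0.16, adjusted p = 0.0935) with 20E alone.

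Of the member genes with a probe set by symbol, only Jhbp2 was called in a planned comparison, being higher with 20E plus cycloheximide than without hormone. Neither planned comparison of 20E with its own control gave a call for it. The study, by its own test, lists the gene as CG2016 among those that 20E induced in the presence of cycloheximide. In its separate arrays of staged animals the gene was lower after RNA interference against the ecdysone receptor EcR. Neither receptor, nor jhamt, nor Jheh2 was called in any of the 6 planned comparisons. Over the 12 arrays the highest intensity of Jhbp2 was 3.55 times its lowest, while that ratio lay between 1.21 for gce 145114_at and 1.38 for Met in the other 5 member probe sets.

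**Figure D1:**
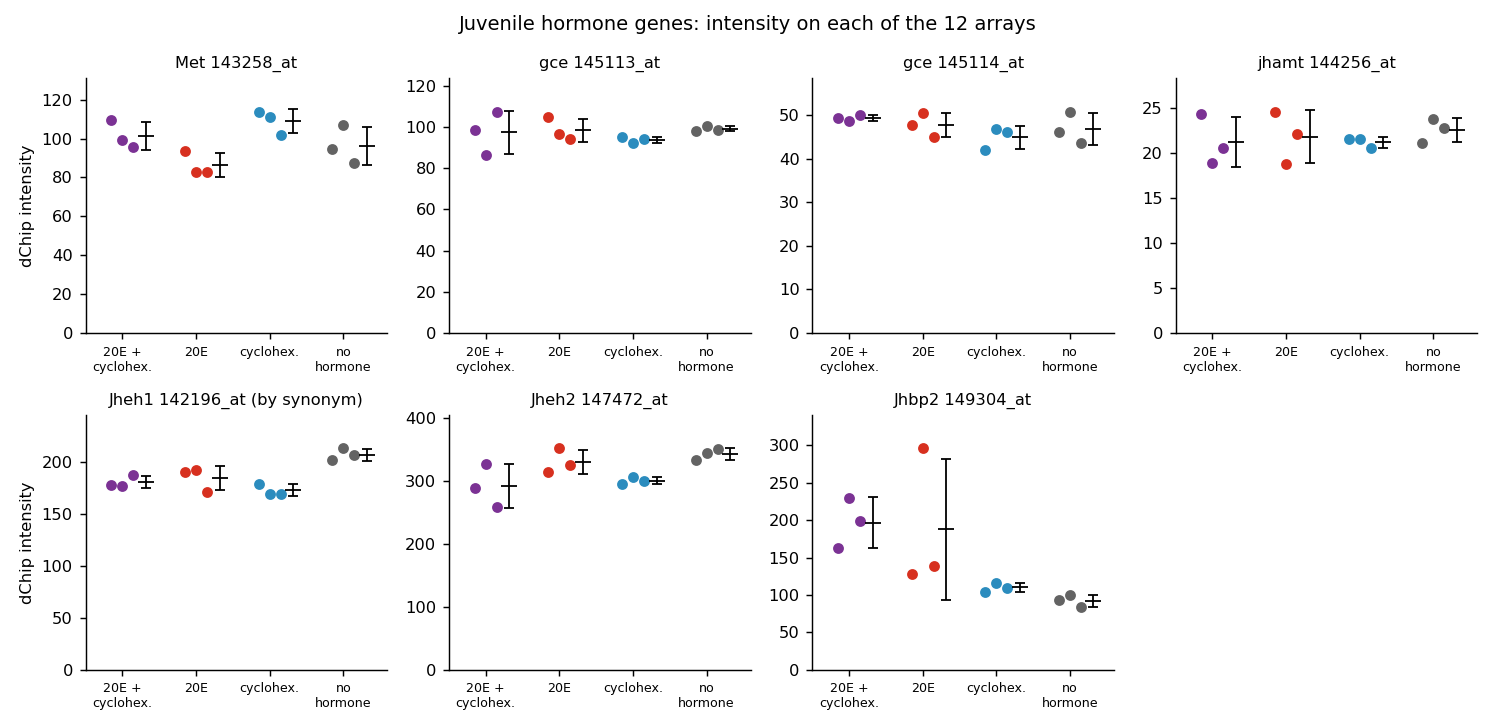
dChip intensity (linear scale from 0, each panel with its own) of the 6 member probe sets and of 142196_at, assigned to Jheh1 by synonym, in the 4 groups; each point is 1 array, and the bar beside it is the mean with its SD (n = 3). The 6 arrays with 20E lie at 128 or more for Jhbp2 and the 6 without at 116 or less, and the groups lie close together in the other panels.

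Met, the receptor found through mutants that tolerate a JH analog, had intensities of 109, 99.0 and 95.7 in organs with 20E plus cycloheximide, 93.7, 82.6 and 82.9 with 20E, 114, 111 and 102 with cycloheximide, and 94.6, 107 and 87.3 without hormone. The order of the group means was cycloheximide (109 ± 6.18), 20E plus cycloheximide (101 ± 7.09), no hormone (96.2 ± 9.83) and 20E (86.4 ± 6.33; SD, n = 3 each), and the arrays of each neighbouring pair in that order overlapped. The 3 arrays with 20E plus cycloheximide lay above the 3 with 20E, a log2 difference of 0.23 (SE 0.09, adjusted p = 0.264), which was not called. Shares of all probe sets without overlap were taken only for higher values, in the 20E comparisons and for both agents against no hormone. Other gaps between groups, here and below, have no such share beside them. With 20E the log2 difference was -0.15 (SE 0.09, adjusted p = 0.459) alone and -0.10 (SE 0.09, adjusted p = 0.775) with cycloheximide present. With cycloheximide against no hormone it was 0.18 (SE 0.09, adjusted p = 0.269).

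The related receptor gene gce, which can replace Met in part, is represented by a pair of probe sets, and neither was called in any comparison. Probe set 145113_at read 98.4, 86.5 and 107 with 20E plus cycloheximide, 105, 96.5 and 94.0 with 20E, 95.2, 92.4 and 94.1 with cycloheximide, and 98.3, 100 and 98.5 without hormone. The cycloheximide arrays lay below those without hormone by a log2 difference of -0.08 (SE 0.08, adjusted p = 0.601), and the other groups overlapped. The dimmer 145114_at read 49.5, 48.7 and 50.2 with 20E plus cycloheximide, 47.7, 50.6 and 45.1 with 20E, 42.0, 46.9 and 46.1 with cycloheximide, and 46.1, 50.8 and 43.7 without hormone. Its arrays with 20E plus cycloheximide lay above those with cycloheximide (log2 difference 0.14, SE 0.08, adjusted p = 0.591), and its other groups overlapped. No planned comparison gave either probe set a larger log2 difference than this 0.14.

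The gene jhamt encodes the methyltransferase of the last steps of JH synthesis, which the corpus allatum expresses. Its probe set read 24.3, 18.8 and 20.5 with 20E plus cycloheximide, 24.6, 18.7 and 22.1 with 20E, 21.5, 21.5 and 20.5 with cycloheximide, and 21.1, 23.7 and 22.8 without hormone. All 12 values lay under 50, as did 15.7% to 17.5% of the probe sets on an array, and all groups overlapped. No detection calls come with these values, so that a low transcript level and no transcript cannot be told apart here. Its log2 differences were -0.05 with 20E alone (SE 0.11, adjusted p = 0.858) and -0.0044 with 20E in the presence of cycloheximide (SE 0.11, adjusted p = 0.996).

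Jheh2 encodes a JH epoxide hydrolase and lies between Jheh1 and Jheh3 in RefSeq's gene order. It read 290, 328 and 259 with 20E plus cycloheximide, 314, 352 and 326 with 20E, 295, 307 and 300.3 with cycloheximide, and 334, 346 and 351 without hormone. All arrays of both cycloheximide groups lay below all arrays without hormone, and the share of all probe sets that did so was not taken. The log2 difference from no hormone was -0.24 (SE 0.08, adjusted p = 0.165) with 20E plus cycloheximide and -0.19 (SE 0.08, adjusted p = 0.211) with cycloheximide, and neither was called. Against 20E, the organs with 20E plus cycloheximide differed by -0.18 (SE 0.08, adjusted p = 0.348), with overlapping arrays. With 20E alone the difference was -0.055 (SE 0.08, adjusted p = 0.797).

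Probe set 142196_at, assigned to the neighbouring gene Jheh1, read 178, 176 and 188 with 20E plus cycloheximide, 190, 192 and 171 with 20E, 179, 169 and 169 with cycloheximide, and 201, 213 and 206 without hormone. The 9 treated arrays all lay below the 3 without hormone. With cycloheximide the log2 difference from no hormone was -0.26 (SE 0.06, adjusted p = 0.0411), which passed the p limit but, as a 0.833-fold level, not the fold limit. It was -0.20 (SE 0.06, adjusted p = 0.139) with 20E plus cycloheximide and -0.17 (SE 0.06, adjusted p = 0.245) with 20E. The 3 comparisons share the no hormone arrays.

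Jhbp2 belongs to the takeout family of small secreted proteins that resemble the JH carriers of moths. It read 162, 229 and 199 in organs with 20E plus cycloheximide, 128, 296 and 139 with 20E, 104, 116 and 110 with cycloheximide, and 93.4, 99.9 and 83.4 without hormone. The order of the group means was 20E plus cycloheximide (197 ± 33.7), 20E (187 ± 94.1), cycloheximide (110 ± 6.04) and no hormone (92.2 ± 8.31; SD, n = 3 each). The first pair of this order overlapped, and each 20E group lay wholly above each group without 20E. Replicate 2 was the highest array of each group, and in the 20E group it stood at 296 while the other two read 128 and 139.

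In the planned comparison of 20E with no hormone, Jhbp2 had a log2 difference of 0.92 (SE 0.25, 95% interval 0.37 to 1.47, adjusted p = 0.115) and was not called. None of the 6 member probe sets was called, where 2.16% of all probe sets were. Of the 6, 1, Jhbp2, had an unadjusted p under 0.05, and SAM called 0. The share of all probe sets under that unadjusted limit was not taken, here or in the comparisons below. SAM totals over all probe sets are given only where SAM called a member. Jhbp2 was also the only member whose 20E arrays all lay above all no hormone arrays, which held for 10.6% of all probe sets. Without 20E replicate 2 its log2 difference was 0.53 (adjusted p = 0.142), and without 20E replicate 1 it was 1.14 (adjusted p = 0.0597), which would be called.

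With cycloheximide present, the log2 difference of Jhbp2 with 20E was 0.83 (SE 0.25, 95% interval 0.28 to 1.37, adjusted p = 0.224), again without a call and without overlap. None of the 6 members was called, against 1.25% of all probe sets; 1 of 6, Jhbp2, had an unadjusted p under 0.05, and SAM called 1, which was Jhbp2, where it called 167 of all 13966 probe sets. Of the members, Jhbp2 and gce 145114_at had all 20E plus cycloheximide arrays above all cycloheximide arrays, 2 of 6, where 7.78% of all probe sets did. The adjusted p of Jhbp2 was 0.0514 in a fit of these 6 arrays alone and 0.00704 without 20E replicate 2, an array that is not in the comparison and acts through the shared estimate of spread.

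The interaction, the effect of 20E with cycloheximide minus that without it, was -0.09 for Jhbp2 (SE 0.36, 95% interval -0.87 to 0.68, adjusted p = 0.925). Leaving out 1 array at a time moved it between -0.31, without 20E replicate 1, and 0.29, without 20E replicate 2, so its sign is not settled. No member was called in it, where 0.136% of all probe sets were, and 0 of 6 had an unadjusted p under 0.05.

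Against organs without hormone, those with both agents had 2.12 times the Jhbp2 intensity (log2 difference 1.08, SE 0.25, adjusted p = 0.0343), the 1 member call of the planned comparisons. This call, 1 of 6 members where 4.22% of all probe sets were called, ended without 20E plus cycloheximide replicate 2 (log2 difference 0.96, adjusted p = 0.130) and without no hormone replicate 3 (1.01, adjusted p = 0.120). Its arrays did not overlap, with every array of both agents above every no hormone array, as in 9.54% of all probe sets.

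The effect of 20E was also taken as an average over both conditions, 6 arrays with 20E against 6 without, a comparison chosen after the values had been seen. Jhbp2 was then 1.83 times as high with 20E as without (log2 0.87, SE 0.18, 95% interval 0.48 to 1.26, adjusted p = 0.0239). It was the 1 member called, where 1.98% of all probe sets were, and it kept its call under all 21 alternatives, 12 of which left out 1 array each, with a log2 difference from 0.68 to 0.98 and an adjusted p up to 0.0927. The average uses the same arrays as the comparisons above and is not a separate measurement.

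Cycloheximide without 20E gave Jhbp2 a log2 difference of 0.26 (SE 0.25, adjusted p = 0.591), although the cycloheximide arrays did not overlap those without hormone. Its arrays lay above those without hormone, while the cycloheximide arrays of gce 145113_at and Jheh2 lay below them. The share of all probe sets without overlap was not taken for either direction, so nothing is read from such gaps. None of the 6 members was called with cycloheximide against no hormone, where 4.42% of all probe sets were, and 1 of 6, Jheh2, had an unadjusted p under 0.05; SAM called 0. None was called between 20E plus cycloheximide and 20E either, where 1.99% of all probe sets were. There 2 of 6, Met and Jheh2, had an unadjusted p under 0.05, a count with no share of all probe sets beside it. SAM again called 0, and Jhbp2 differed by 0.16 (SE 0.25, adjusted p = 0.840). Averaged over both 20E conditions, an added comparison in which 2.76% of all probe sets were called, cycloheximide gave 0.21 for Met (SE 0.06, adjusted p = 0.0899) and -0.19 for Jheh2 (SE 0.06, adjusted p = 0.0935). Both passed the p limit and missed the fold limit, so 0 of 6 members were called. Leaving out 20E replicate 2 brought Jhbp2 to 0.40 (adjusted p = 0.0267) in that comparison and to 0.55 (adjusted p = 0.0985) between 20E plus cycloheximide and 20E, both past the limits.

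**Figure D2:**
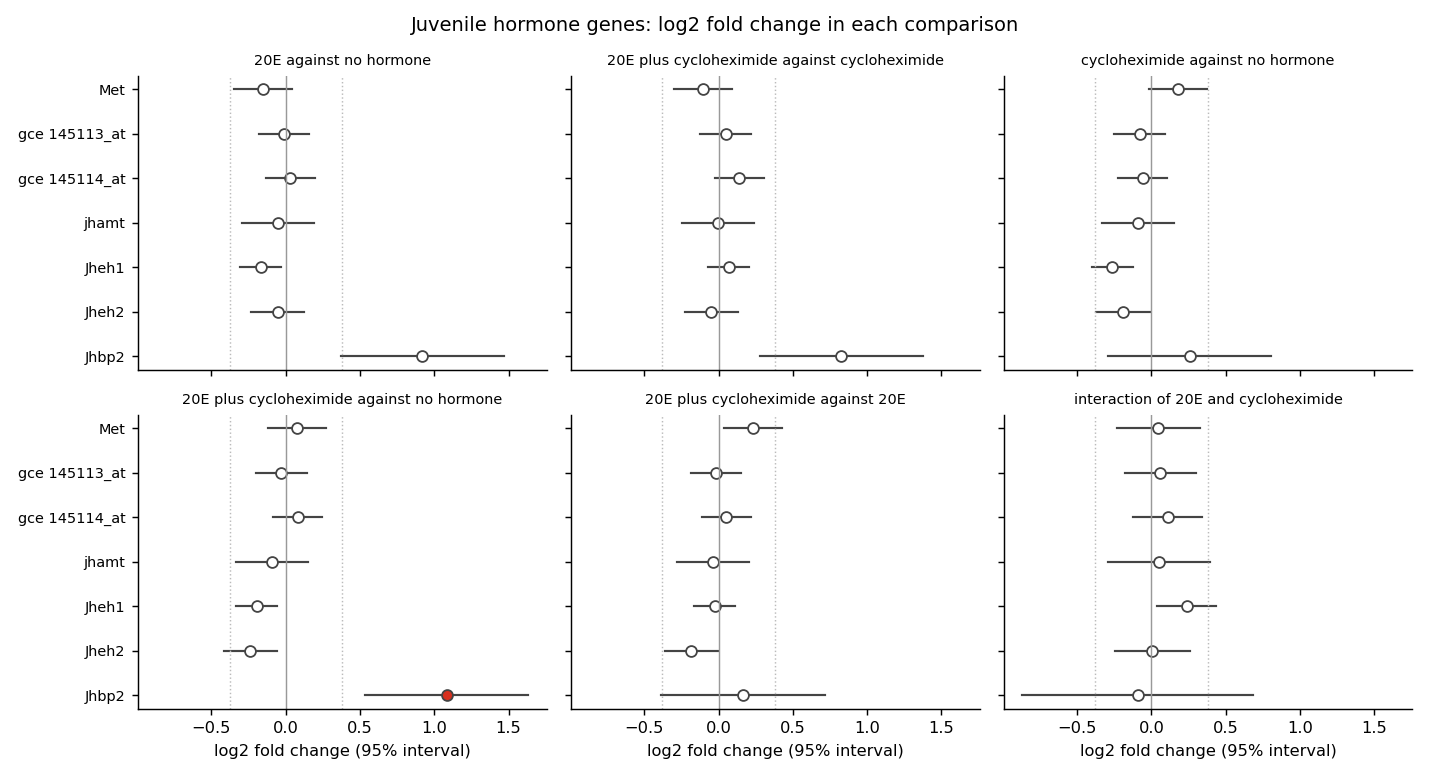
Log2 fold change (x axis, with its 95% interval from limma) of the 6 member probe sets and of Jheh1 by synonym in the 6 planned comparisons, first-named group over second; dotted lines mark a 1.3-fold change and a filled point a call. The filled point is Jhbp2 with 20E plus cycloheximide against no hormone, at 1.08; the intervals of Jhbp2 are the widest in every panel.

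For the 5 member probe sets other than Jhbp2, the 95% intervals of the fold change in intensity reached at most a 1.27-fold change in either direction with 20E against no hormone, 1.23-fold with 20E in the presence of cycloheximide, and 1.3-fold with cycloheximide against no hormone. For 20E plus cycloheximide they reached 1.34-fold against no hormone and 1.34-fold against 20E. Their smallest adjusted p in any of the planned comparisons was 0.165, that of Jheh2 with both agents against no hormone. No signal of these probe sets was shown to be above background, so the intervals bound a change in intensity and not in the transcript. Values lay under 50 on all 12 arrays for jhamt and on 9 for gce 145114_at.

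The neighbours of Jhbp2 in RefSeq's gene order are Jhbp3 and Jhbp1, which belong to the same family. Jhbp1 read 250, 251 and 268 with 20E plus cycloheximide, 295, 336 and 286 with 20E, 195, 234 and 259 with cycloheximide, and 245, 207 and 243 without hormone. Its 20E arrays lay above those of the other 3 groups, with a log2 difference of 0.40 from no hormone (SE 0.11, adjusted p = 0.110) that was not called and 0.17 in the presence of cycloheximide (SE 0.11, adjusted p = 0.666). SAM called Jhbp1 with 20E alone, as did limma under 5 of its other 22 settings. Jhbp3 averaged 134 ± 10.3, 130 ± 9.90, 128 ± 4.76 and 134 ± 15.2 in organs with 20E plus cycloheximide, 20E, cycloheximide and no hormone (SD, n = 3 each), with overlapping arrays in all 4. Its log2 differences were -0.04 (SE 0.09, adjusted p = 0.884) with 20E alone and 0.07 (SE 0.09, adjusted p = 0.872) with cycloheximide present.

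Across 13 other measured takeout and JH-binding-like genes, Jhbp1 and Jhbp3 among them, 0 were called in any comparison by the probe set with the highest mean. Their median log2 difference with 20E was -0.15 alone, where that of all probe sets was -0.0062, and 0.0976 with cycloheximide present, where that of all probe sets was 0.02. With cycloheximide against no hormone it was -0.149, where that of all probe sets was -0.03. The lowest value there was that of Jhbp14, a log2 difference of -0.36 (SE 0.09, adjusted p = 0.0509), under the fold limit. The medians include dim probe sets, since Jhbp4, Jhbp5, Jhbp11, Jhbp15 and CG7079 had group means between 34.2 and 59.9. No signal of these was shown to be above background. CG11854 had 0.52 with 20E alone (SE 0.28, adjusted p = 0.420). A dimmer probe set of Jhbp6, 151125_at, was lower with cycloheximide (-0.47, SE 0.10, adjusted p = 0.0305) and with both agents (-0.45, SE 0.10, adjusted p = 0.0351). With 20E alone its log2 difference was -0.40 (SE 0.10, adjusted p = 0.1002), which missed the limit and was called under 5 of 22 alternatives, and the arrays of all 3 treated groups lay below those without hormone. Its intensities lay between 20.6 and 35.0, all under the floor of 50 tried as an alternative. Its calls with cycloheximide and with both agents each ended under 4 of 22 alternatives. Among these were that floor, 16 added to each intensity, and leaving out no hormone replicate 2 (adjusted p = 0.116 and 0.140). The other probe set of Jhbp6 was not called.

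**Figure D3:**
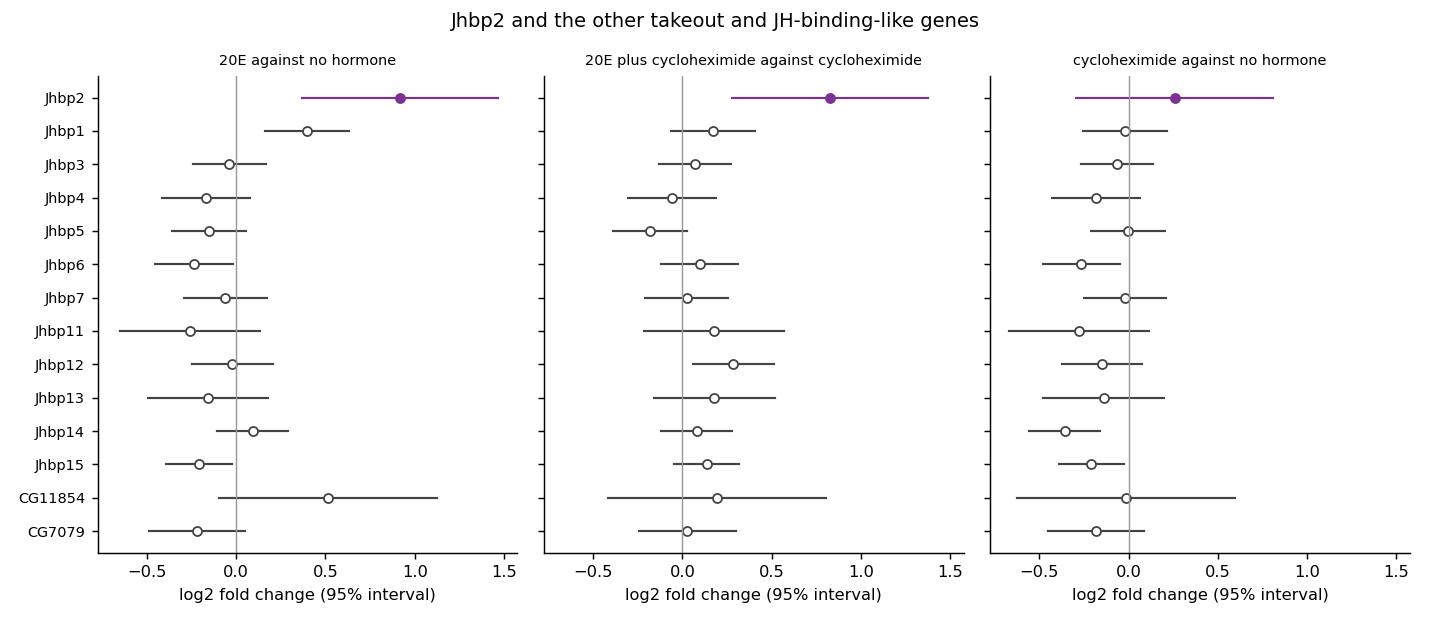
Log2 fold change (x axis, with its 95% interval from limma) of Jhbp2, filled, and of 13 other takeout and JH-binding-like genes, open, in 3 comparisons. Jhbp2 stands at 0.92 and 0.83 in the left and middle panels, and the highest of the other genes there are CG11854 at 0.52 and Jhbp12 at 0.28.

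By the fixed rule, the probe sets most like Jhbp2 over the 12 arrays were CG10359 (Pearson r = 0.98), ImpE2 (0.95) and CG8031 (0.95); the points share the arrays and treatments, and the values describe likeness only. CG10359 read 197, 237 and 213 with 20E plus cycloheximide, 180, 251 and 192 with 20E, 164, 165 and 150.2 with cycloheximide, and 147, 149 and 143 without hormone. ImpE2, first isolated as an ecdysone-inducible gene of imaginal discs, averaged 874 ± 109, 786 ± 163, 669 ± 21.2 and 536 ± 4.38, and CG8031 averaged 309 ± 23.6, 291 ± 49.9, 232 ± 9.94 and 225 ± 10.7, in organs with 20E plus cycloheximide, 20E, cycloheximide and no hormone (SD, n = 3 each). In the 20E group, replicate 2 was the highest array of all 3 genes, as it was of Jhbp2 and of Eip78C. Because the 3 genes were picked by likeness to Jhbp2 on these arrays, their sharing of this peak follows largely from the choice. The part that the culture of 20E replicate 2 plays in the spread of Jhbp2 was not tested.

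Among genes that respond to JH or work with its receptors, 7 of 9 listed were measured: Kr-h1, tai, Fkbp39, JhI-21, JhI-26, Nup358 and RNaseZ, the gene listed as JhI-1. By the probe set with the highest mean, Kr-h1 alone was called, and it was higher in all 5 planned comparisons of groups. It read 135, 147 and 90.8 with 20E plus cycloheximide, 69.6, 71.5 and 55.2 with 20E, 76.8, 67.9 and 63.9 with cycloheximide, and 42.0, 32.7 and 30.5 without hormone. The arrays with both agents lay above all others, the arrays with either agent overlapped each other, and those without hormone were lowest.

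The study marks Kr-h1 as a gene already known to be regulated by 20E. It also states that cycloheximide by itself can stabilize mRNAs already present. Kr-h1 rose with 20E by 0.90 on the log2 scale alone (SE 0.18, adjusted p = 0.0302) and by 0.81 with cycloheximide present (SE 0.18, adjusted p = 0.0625), and with cycloheximide alone by 1.00 (SE 0.18, adjusted p = 0.0107). With both agents it stood 1.81 above no hormone (SE 0.18, adjusted p = 1.68e-04) and 0.91 above 20E (SE 0.18, adjusted p = 0.0314). The interaction was -0.09 (SE 0.25, adjusted p = 0.890), or 0.44 (adjusted p = 0.486) with a floor of 50, and was not called. Its no hormone arrays lay under 50, and with a floor of 50 the log2 change was 0.38 with 20E alone (adjusted p = 0.390) and 0.47 with cycloheximide alone (adjusted p = 0.190), neither a call. The call for 20E alone was lost when no hormone replicate 2, no hormone replicate 3 or 20E replicate 2 was left out (adjusted p from 0.111 to 0.151), and that with cycloheximide present when any was left out of 5 of the 6 arrays compared (adjusted p from 0.137 to 0.220), in a fit of those 6 arrays alone (0.159) and with a floor of 50 (0.112). The call between both agents and 20E ended without 20E replicate 3 (adjusted p = 0.143) or 20E plus cycloheximide replicate 1 (0.106) and in a fit of the 6 arrays alone (0.143).

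The coactivator tai was measured by a pair of probe sets that disagreed. Probe set 146075_at read 114, 127 and 121 with 20E plus cycloheximide, 82.0, 77.5 and 79.95 with 20E, 58.8, 56.3 and 65.6 with cycloheximide, and 61.6, 60.1 and 62.2 without hormone. Its arrays with both agents lay highest, those with 20E next, and the remaining groups overlapped; it was singled out after its values were seen. It rose with 20E by 0.38 alone (SE 0.07, adjusted p = 0.0223), just past the fold limit, and by 1.00 with cycloheximide present (SE 0.07, adjusted p = 3.41e-05). The call for 20E alone was lost without no hormone replicate 2 (adjusted p = 0.115) and, by the fold limit, without 20E replicate 1, with median centring or with 16 added to each intensity (log2 differences 0.36, 0.37 and 0.31). The interaction was 0.62 (SE 0.10, adjusted p = 0.0842), a call that ended under 9 of 19 alternatives, each of which left out 1 array (adjusted p up to 0.243). The brighter 146074_at averaged 118 ± 6.96, 109 ± 4.0, 100.2 ± 3.65 and 105 ± 2.30 in organs with 20E plus cycloheximide, 20E, cycloheximide and no hormone (SD, n = 3 each). Its log2 difference was 0.05 (SE 0.06, adjusted p = 0.738) with 20E alone and 0.24 (SE 0.06, adjusted p = 0.140) with cycloheximide present.

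**Figure D4:**
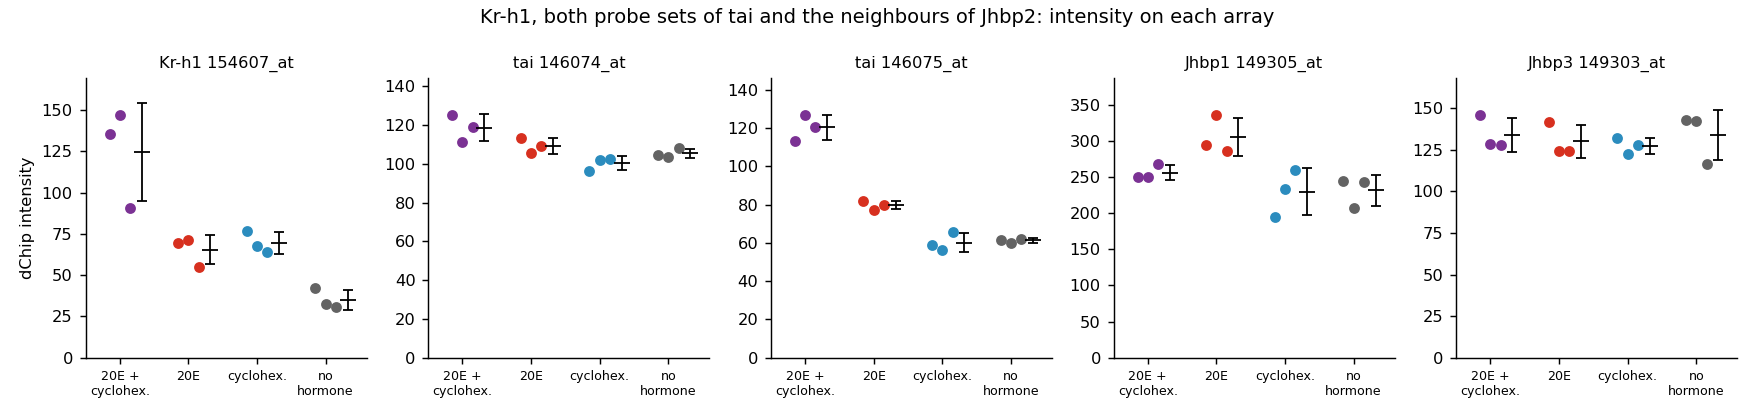
dChip intensity (linear scale from 0, each panel with its own) of Kr-h1, of the pair of tai probe sets and of Jhbp1 and Jhbp3, the neighbours of Jhbp2, in the 4 groups; each point is 1 array, and the bar beside it is the mean with its SD (n = 3). Kr-h1 and tai 146075_at are highest with 20E plus cycloheximide, tai 146074_at lies between 96.0 and 125, and Jhbp3 overlaps in all groups.

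JH is built from farnesyl pyrophosphate, the product of the mevalonate pathway. Of its 7 listed enzymes 6 were measured, and 0 were called in a planned comparison. Averaged over both conditions, Hmgs (142736_s_at), HMG-CoA synthase, was lower with 20E by a log2 difference of -0.42 (SE 0.11, adjusted p = 0.0999), a call that ended under 12 of 21 alternatives, and its other probe set gave 0.02 (SE 0.07, adjusted p = 0.984). Hmgs averaged 509 ± 114 with 20E plus cycloheximide, 418 ± 31.7 with 20E, 677 ± 109 with cycloheximide and 557 ± 64.9 without hormone (SD, n = 3 each). Fpps, farnesyl pyrophosphate synthase, averaged 110.5 ± 6.16, 138 ± 3.10, 111 ± 2.84 and 126 ± 11.1 in the same order, and its log2 difference between 20E plus cycloheximide and 20E was -0.32 (adjusted p = 0.0585), under the fold limit.

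Of 9 measured esterase genes (Jhedup, Est-P and 7 alpha-Est genes), and of 6 measured allatostatin, Dpp and glutamate receptor genes that act on the corpus allatum, 0 were called in any comparison. The same held for 4 ring gland genes of steroid and adipokinetic hormone synthesis, 2 fat body, 5 midgut and 6 salivary gland markers, counted by the probe set with the highest mean. Jhedup read between 5.78 and 10.74, and values under 10 were set to 10, so it could not reach a 1.3-fold change. The glutamate receptor gene Nmdar1 was also dim, at 14.45 to 20.09. The summed intensity of the 4 ring gland genes lay between 1091 and 1149.9 with 20E plus cycloheximide, 1052 and 1144 with 20E, 919.7 and 1032 with cycloheximide, and 959.8 and 1149 without hormone. The sums with 20E thus lay above those with cycloheximide, as Jhbp2 did, and overlapped those without hormone, as Jhbp2 did not; their part in the Jhbp2 values was not tested. The summed intensity of both fat body markers, Lsp2 and Fbp1, lay between 16836 and 18589 with 20E plus cycloheximide, 15957 and 18622 with 20E, 16848 and 19704 with cycloheximide, and 17181 and 17944 without hormone. The midgut and salivary gland sums overlapped between all groups as well, and the lowest value of any measured marker of these tissues was 168, that of dib.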

How the data were processed

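The authors hybridised RNA from 12 organ cultures to 12 Affymetrix Drosophila Genome Arrays and deposited 1 intensity per probe set and array, normalized and modelled in dChip; the baseline array and the use of mismatch probes are not given in the sources used here. Groups followed the sample titles. The deposited intensities, with values under 10 set to 10, were log2-transformed and fitted in limma 3.58.1 (R 4.3.3) over all 12 arrays, its prior variance following intensity (trend), and Benjamini-Hochberg adjustment over 13966 probe sets. An adjusted p under 0.10 and a 1.3-fold change made a call, without the fold limit for the interaction. The 6 planned comparisons and 2 added after the values had been seen, each agent averaged over the other, were tested, and the scripts were tested on simulated data. The members and gene lists were chosen with earlier results of these data known.

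Of the probe sets, 12443 had 1 gene symbol, 327 several and 1196 none, and 12394 of those with 1 matched a RefSeq gene. In list counts, each gene stands by its brightest probe set (mean log2 over the arrays). By rule, the named genes were all members, up to 4 genes a list (those called first, then by mean intensity), and, for each called member, the 3 probe sets with 1 gene name and a mean intensity of at least 50 that correlated best with it. Jheh1, Jhbp1, Jhbp3, Jhbp12, Jhbp14, CG11854, Fpps, dib and the second probe sets of tai, Hmgs, Hr3 and Jhbp6 were named after their values had been seen. Samples with the same replicate number counted as paired where the correlation of their deviations passed a fixed limit in all 3 pairs. This held for cycloheximide against no hormone (0.41, 0.21 and 0.29). The limma fit above had no replicate term, so its SEs and p-values for that comparison leave this pairing out. A replicate block was used only as an alternative. Between 20E plus cycloheximide and 20E the correlations were 0.39, 0.55 and 0.09, the last under the limit. The other compared groups did not meet the rule either. Alternatives were floors of 1 and 50, log2 of the intensity plus 16, quantile normalization, median centring, the dimmest probe sets (0.333 of all) left out, no intensity trend, no fold limit, only the compared arrays, SAM with 20 permutations, a replicate block, and leaving out each array.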

Additional observations from a re-analysis of the deposited data

How the results depend on the processing

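Over the alternatives, the number of called members stayed at 0 for cycloheximide against no hormone and for the interaction, and at 1, Jhbp2, for 20E averaged over both conditions. With 20E against no hormone it was 1 instead of 0, always Jhbp2, with a floor of 1 (adjusted p = 0.0813), log2 of the intensity plus 16 (0.0920), quantile normalization (0.0947), median centring (0.0808) and the dimmest probe sets left out (0.0796). In that order these settings called 360, 310, 323, 357 and 306 of all 13966 probe sets, where the fit described called 301. When 1 array was left out, the number of called members ranged from 0 to 1. With 20E in the presence of cycloheximide it was 1 instead of 0 with only the compared arrays and by SAM. These called 110 and 167 of all probe sets, where the fit described called 175. The number of called members ranged from 0 to 1 when 1 array was left out. It did so too for 20E plus cycloheximide against no hormone and against 20E. For cycloheximide averaged over both conditions it was 2 with no fold limit (Met and Jheh2), a setting that called 1206 of all 13966 probe sets, and from 0 to 1 when 1 array was left out. With the replicate block the number of called members was 1 for 20E against no hormone (Jhbp2, adjusted p = 0.0392) and 1 for 20E in the presence of cycloheximide (0.0764). The block called 446 and 271 of all probe sets there, and it changed no other member call. By the rule used, replicate numbers paired no samples in these comparisons. Of 1046 values of single members under alternatives, 15 gained a call, 2 lost one and 0 turned the sign of a call; of 987 that were not called either way, 53 had another sign than in the fit described, and the cause was not tested. The 3 arrays per group limit the precision, and the arrays give no depth.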
